A study of Mus musculus with 2 samples.

Results

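The Wnt set described here holds the genes for Wnt ligands, their Frizzled and Lrp receptors, secreted antagonists, R-spondins and readouts of the pathway, in single cells of mouse dorsal skin. It was chosen by symbol: Wnt, Fzd, Sfrp, Dkk or Rspo followed by a digit, together with Wif1, Notum, Axin2, Lef1, Apcdd1, Lrp5, Lrp6 and Lgr5. Of 27998 genes in the count files, 50 fitted that rule, and the 44 with at least 20 unique molecular identifiers (UMIs, each standing for 1 captured transcript molecule) over the kept cells of both libraries form the set. They are 16 ligands, 12 receptors and co-receptors, 9 antagonists, 5 genes of the R-spondin and Lgr5 group, and the target genes Axin2 and Lef1. Roles were assigned by symbol, with every Sfrp and Dkk gene, Dkk3 among them, placed with the antagonists. They do not report a measured function. The genes that fell short were Dkk1, Dkk4, Wnt8a, Wnt8b, Wnt9b and the antisense gene Rspo4os.

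Cells came from dorsal skin of wild-type female C57BL/6 mice aged 2 months and were profiled by droplet-based 3' RNA sequencing. The control group and the group given topical imiquimod (IMQ) every day for 5 days held 1 library each. Imiquimod is a Toll-like receptor agonist that produces psoriasis-like inflammation on mouse skin. No source used here says how many mice went into a library, and no test between the groups is possible. Every interval below covers counting error only.

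Wnt proteins are lipid-modified secreted factors that need Wls and Porcn to leave the cell. On the receiving cell they bind a Frizzled receptor, with Lrp5 or Lrp6 as co-receptor for the branch that stabilises beta-catenin. Stabilised beta-catenin enters the nucleus, joins Lef1 or a Tcf protein on DNA and switches on targets such as Axin2, Notum and Apcdd1, which in turn dampen the signal. R-spondins bind Lgr receptors and prolong the presence of Frizzled on the surface, while Wif1 and several Sfrp and Dkk proteins act outside the cell against ligand or receptor. In skin this pathway is known for the growth of hair follicles, for the signals of the dermal papilla at the base of each follicle, and for the renewal of basal keratinocytes.

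Promoter sequences are shown for 3 members on which the results turn: Axin2, the most widely measured target gene of the set, Lef1, the nuclear partner of beta-catenin, and Wnt3, the ligand with the widest difference between the libraries over all cells. Each run is the 250 bases before a transcription start on the strand of the gene, from RefSeq on GRCm38.p6. The Lef1 run lies inside the gene, which spans bases 131110471 to 131224356 of chromosome 3 in GENCODE M21, so it precedes an internal start. Capitals mark a match to the core bound by Tcf and Lef proteins, searched on both strands in 4 forms that begin alike and differ in their last letters. The form CTTTGAA was found in 4.46% of all windows of this length. The form CTTTGAT was in 3.21% of them. A share of 3.20% held CTTTGTA, windows with several forms counted for each. The form CTTTGTT, the most frequent, was in 5.03%.
Axin2 (chr11:108920099-108920348, plus strand): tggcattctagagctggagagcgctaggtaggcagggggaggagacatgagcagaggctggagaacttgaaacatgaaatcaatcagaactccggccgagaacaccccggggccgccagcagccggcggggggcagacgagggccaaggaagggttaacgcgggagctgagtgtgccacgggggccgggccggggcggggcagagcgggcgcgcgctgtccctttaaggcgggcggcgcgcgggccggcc
Lef1 (chr3:131156044-131156293, plus strand, 1 of 4 starts in the table, shown because it holds a match): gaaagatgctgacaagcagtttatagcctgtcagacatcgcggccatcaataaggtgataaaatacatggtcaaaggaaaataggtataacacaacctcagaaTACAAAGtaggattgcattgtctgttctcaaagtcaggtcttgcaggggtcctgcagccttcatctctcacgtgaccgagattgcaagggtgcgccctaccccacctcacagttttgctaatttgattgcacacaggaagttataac
Wnt3 (chr11:103773925-103774174, plus strand): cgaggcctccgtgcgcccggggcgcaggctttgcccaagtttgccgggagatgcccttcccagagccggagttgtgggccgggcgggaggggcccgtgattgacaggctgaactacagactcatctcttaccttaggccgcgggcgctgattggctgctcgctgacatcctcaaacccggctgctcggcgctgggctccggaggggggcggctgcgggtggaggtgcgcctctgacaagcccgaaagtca
The Lef1 window held CTTTGTA on the minus strand, 147 to 141 bases before the start, and the windows of Axin2 and Wnt3 held none of the 4 forms. Among 32851 windows of the table, 14.8% held at least 1 form. The 27 members with an entry have 33 windows, of which 4 (12.1%) held one: those of Lef1, Fzd7, Wnt11 and Wnt5b. A match of this kind is a description of letters and not a binding site.

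All 44 members have a position in GENCODE M21 on the same build, on 15 chromosomes. Members form 3 close neighbour pairs: Wnt6 and Wnt10a on chromosome 1 with 6193 bases between them, Wnt3a and Wnt9a on chromosome 11 with 16175, and Wnt10b and Wnt1 on chromosome 15 with 11706. Wnt6 and Wnt10a were both highest in the dermal papilla in both libraries, though for Wnt10a the control interval overlapped that of keratinocytes. Wnt3a was highest in keratinocytes, and Wnt9a in T and natural killer cells in the control and in fibroblasts in the IMQ library, with intervals overlapping those of the next lineage for Wnt9a in both libraries and for Wnt3a in the control. In the IMQ library the next level of Wnt3a was a tie at 0 CPM, and only the fibroblast interval was compared. Wnt10b was highest in T and natural killer cells in both libraries, and Wnt1 in fibroblasts in the control and in pericytes in the IMQ library, and for both genes the intervals overlapped those of the next lineage in each library.

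The control library held 10857 barcodes and the IMQ library 9414, of which 10297 and 8499 had at least 200 genes and at most 10% mitochondrial UMIs. The kept cells held 121631549 and 141358594 UMIs, with medians of 9596 and 12650 a cell, so the IMQ library was the deeper one. Both libraries held 20 of the same cell barcodes, and these cells were kept. Lineage names stand for cells that passed a gate on marker genes, none of them a member of the set, and should be read as fibroblast-like, keratinocyte-like and so on. The gate left 6.55% of control and 7.60% of IMQ cells without a lineage. In 8 lineages both libraries had at least 50 cells, and these are compared: fibroblasts (6897 control and 3647 IMQ cells), dermal papilla cells (124 and 95), keratinocytes (1569 and 2117), pericytes with smooth muscle cells (322 and 205), endothelial cells (86 and 288), Schwann cells (154 and 169), T and natural killer cells (204 and 354) and myeloid cells (165 and 437). Levels are given as CPM, the UMIs of a gene in the summed cells scaled to a total of 1000000. A gene is called higher or lower in IMQ where its ratio is at least 2-fold, its exact 95% interval excludes equality and it has at least 20 UMIs over both libraries in that lineage.

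More members had their highest level in the dermal papilla than in any other lineage. In the control library 14 of the 44 members had their highest level among the 8 lineages there, 8 in fibroblasts and 6 in keratinocytes, and the IMQ counts were 18, 7 and 7. For 29 members the leading lineage was the same in both libraries. The level of the leading lineage had an interval clear of the next one for 27 members in the control and 30 in the IMQ library. For the others the order of the first and second lineage is not resolved. Where the next level was a tie at 0 CPM, as for Wnt3a and Wnt7a in the IMQ library, only the fibroblast interval was compared. Lineages with fewer UMIs have wider intervals, so these members are not shown to be clear of them. These counts were not made over all genes, so they do not show whether the pattern is particular to the set. Dermal papilla cells were 1.20% of control cells and held 69.3% of all Notum UMIs, 65.1% of Lef1, 49.9% of Wif1, 41.4% of Wnt6, 38.7% of Dkk2 and 38.1% of Rspo3. They were also the deepest cells, with medians of 35906.5 UMIs in the control and 32797 in the IMQ library, and 1 of them was marked as a doublet.

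**Figure D1:**
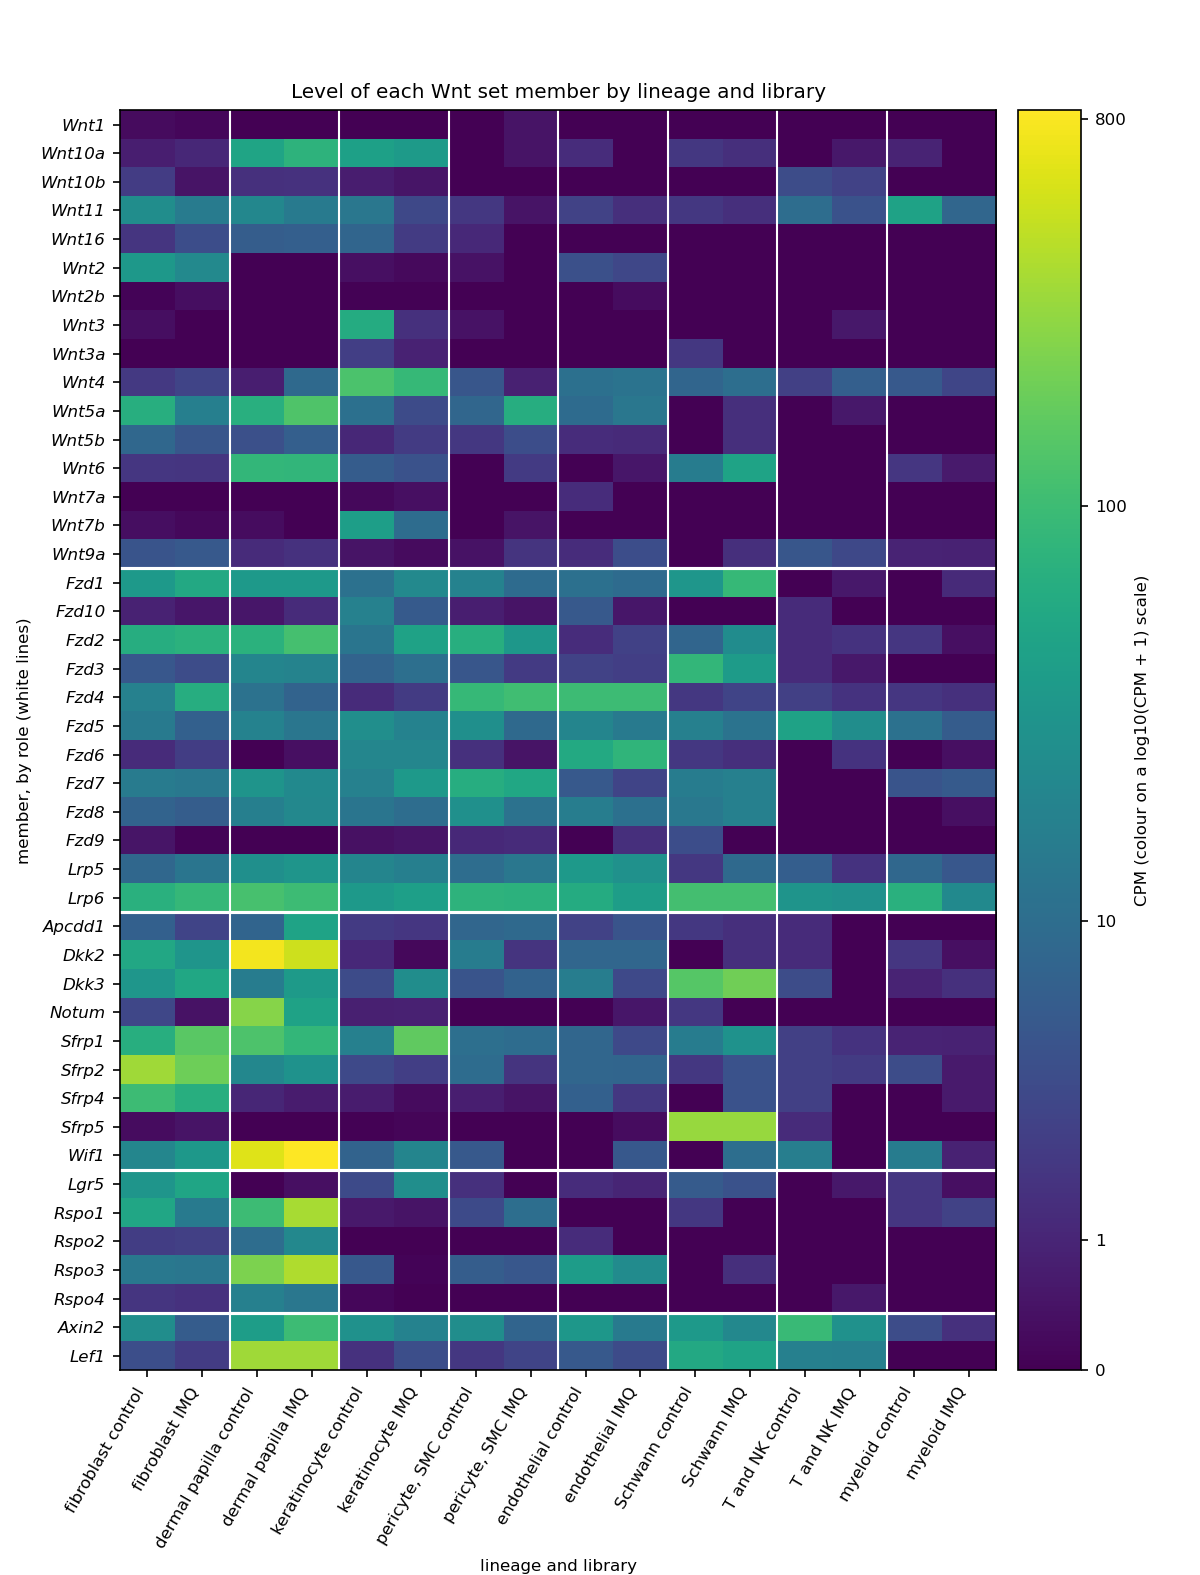
Level of the 44 members (one line each, grouped by role between white lines) in the 8 compared lineages, control beside IMQ, as CPM with colour on a log10(CPM + 1) scale. The brightest cells are Dkk2 (746 and 499 CPM) and Wif1 (607 and 836 CPM) in the dermal papilla, while Sfrp5 (294 and 292 CPM) stands out in Schwann cells alone.

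Among ligands, Wnt3, Wnt7b, Wnt4 and Wnt10a belonged to the epidermis. In control keratinocytes Wnt4 stood at 123 CPM, Wnt3 at 62.5, Wnt10a at 45.4 and Wnt7b at 42.7. Keratinocytes held 91.5% of the control UMIs of Wnt3 and 90.8% of those of Wnt7b. Wnt2 and Wnt5a belonged to the dermis, with 97.0% and 84.8% of their control UMIs in fibroblasts, where they stood at 35.5 and 67.8 CPM. Wnt6, a ligand of follicle and skin development, was highest in the dermal papilla at 85.1 CPM in the control and 81.8 in the IMQ library. Wnt10a was at 50.4 and 76.9 CPM there, though in the control library its interval overlapped that of keratinocytes.

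Receptors were spread more widely. The co-receptor Lrp6 was measured in all 8 lineages, and in the control library it ran from 32.0 CPM in T and natural killer cells to 116 in the dermal papilla, with Schwann cells at 112 and not apart from the papilla. Fzd4 was highest in endothelial cells (98.9 CPM in control, 99.4 in IMQ) and in pericytes (90.3 and 106), Fzd6 in endothelial cells (59.1 and 81.1), Fzd7 in pericytes (65.3 and 54.0) and Fzd3 in Schwann cells (84.9 and 38.8). The first and second lineages of Fzd4 did not differ beyond counting error. Fzd10 was a keratinocyte receptor, with 83.7% of its control UMIs there.

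Of the antagonists, Sfrp2 and Sfrp4 were fibroblast genes, at 318 and 100 CPM in the control library and with 96.8% and 97.0% of their UMIs in that lineage. Sfrp5 was a Schwann cell gene at 294 CPM in the control and 292 CPM in the IMQ library, against at most 1.28 CPM in any other control lineage. Dkk3 too was highest in Schwann cells, at 142 and 195 CPM. Lgr5, the R-spondin receptor best known from stem cells, was highest in fibroblasts in both libraries (32.3 and 50.9 CPM), and in the control library 92.7% of its UMIs lay there.

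Over all cells together, 4 members were higher and 12 lower in the IMQ library, while 13.1% and 5.96% of the 16906 measured genes were called in those directions. These sums combine the mix of lineages with the level inside each: fibroblasts were 67.0% of control and 42.9% of IMQ cells, keratinocytes 15.2% and 24.9%. The median log2 ratio of the members was -0.38, against 0.16 for all genes. Wnt3 had 2393 UMIs in the control and 108 in the IMQ library, 19.7 against 0.764 CPM, and Sfrp1 had 6086 against 19121, 50.04 against 135 CPM. By role, 6 of 16 ligands were lower and 2 higher, 4 of 9 antagonists were lower and 1 higher, and 1 of the 12 receptors was called in each direction. The remaining comparisons are within lineages.

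Within the 8 lineages, 164 pairs of a member and a lineage were measured, and 53 were called, 21 higher and 32 lower. These calls fell on 33 members, and 7 members were called in opposite directions in different lineages. The pooled counts were not made over all genes, so they do not set the members apart. Shares of all genes are given by lineage below. In 3 calls the higher level was no greater than what free RNA could give, estimated from markers of other lineages: Wnt3 in fibroblasts, and Dkk2 and Sfrp4 in keratinocytes. The estimate is a rough one, a median over marker genes. Those 3 are not read as differences of the lineage, and the part of free RNA in them was not tested.

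**Figure D2:**
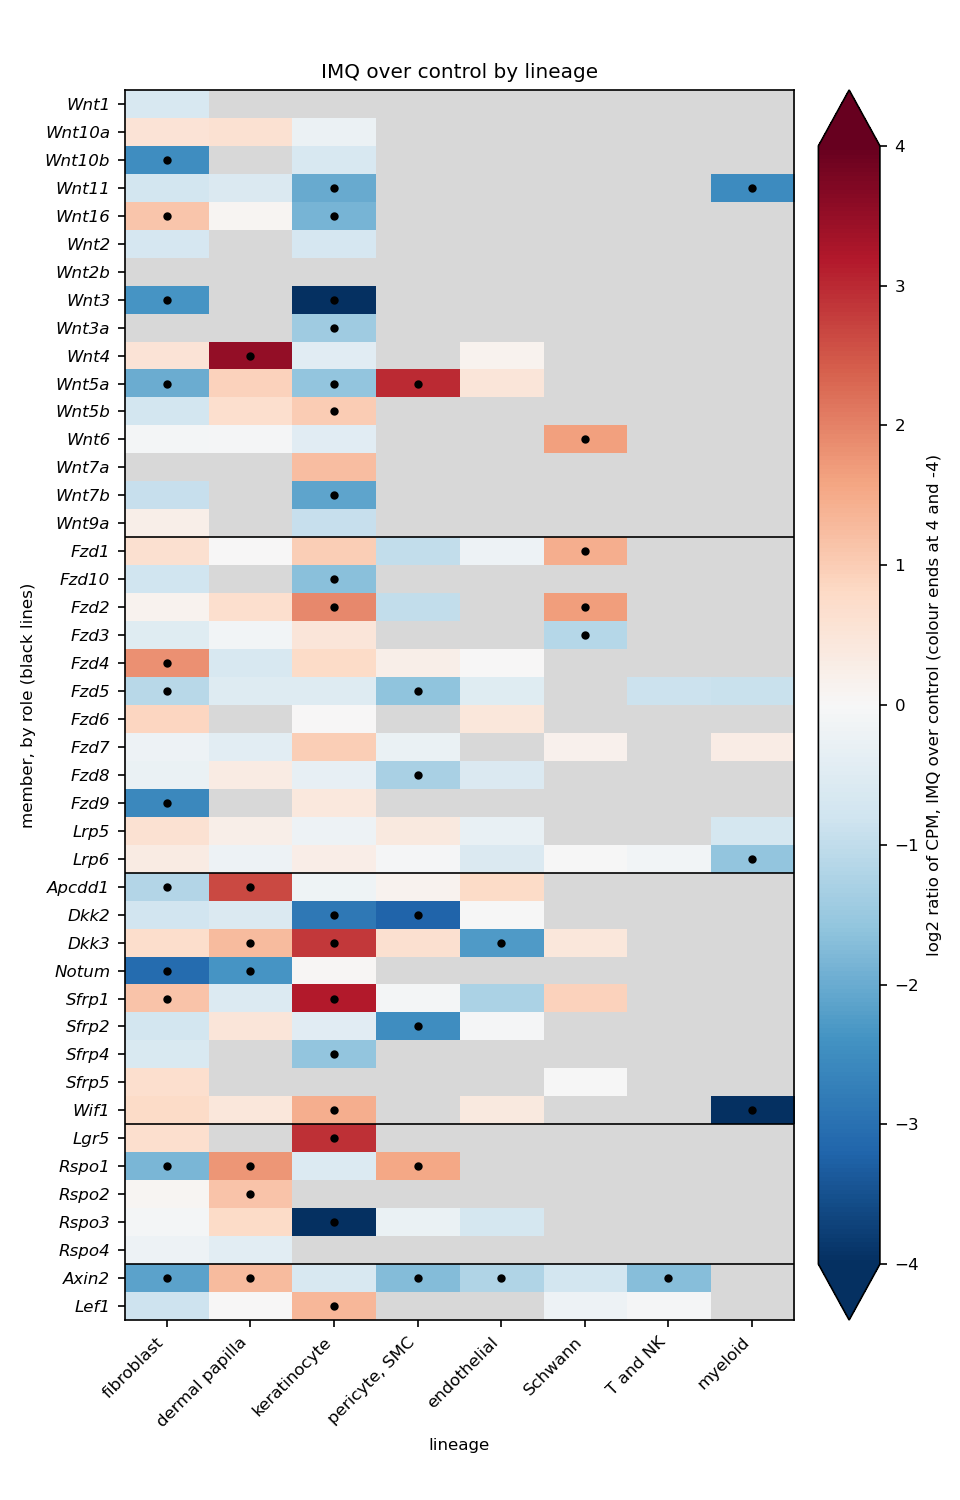
Log2 ratio of CPM, IMQ over control, for each member (lines, by role) in each lineage (columns). Red is higher and blue lower in IMQ, grey is not measured and a black dot marks a call, with colour ending at 4 and -4, so that the 10 blue and 7 red dots of keratinocytes stand beside 6 red and 1 blue in the dermal papilla.

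Keratinocytes held the largest differences. Of 39 measured members 7 were higher and 10 lower, where 11.7% and 10.8% of all measured genes were called. The members' median log2 ratio was -0.33 and that of all genes 0.03. Ligands were mostly on the low side, 6 lower and 1 higher of 14. Of 8 antagonists 3 were higher, and the 2 lower ones, Dkk2 and Sfrp4, were those at the level of free RNA. Different clusters held most keratinocytes in the libraries, clusters 22, 4 and 25 in the control and clusters 20, 21, 33 and 24 in the IMQ library. Fibroblast markers summed to 1048 CPM in control and 220 CPM in IMQ keratinocytes and neutrophil markers to 40.5 and 5435, and their part in these results was not tested.

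Wnt3, a canonical ligand of the epidermis, had 2189 UMIs in control and 103 in IMQ keratinocytes. Its level was 62.5 against 1.56 CPM, 40.0-fold lower (32.8 to 49.2). The libraries were far apart in the keratinocyte compartments too. In basal cells, gated on markers such as Krt5, Krt14 and Itga6, the levels were 76.3 and 2.99 CPM. In suprabasal cells 2 members were higher and 6 lower of 25, against 8.62% and 15.7% of all genes. Wnt3 stood there at 66.8 CPM in the control, and no UMI was seen in 12048087 from the IMQ library, where the floor of 3 counts equals 0.249 CPM. Before thinning, 48.2% of control and 2.69% of IMQ keratinocytes had a Wnt3 UMI. With every cell reduced to 5000 UMIs the shares were 21.8% of 1497 and 0.689% of 2033 cells, after leaving out 72 and 84 shallower cells. Fibroblasts, where Wnt3 was at the level of free RNA and median depths were 9503 and 13286 UMIs against 16822 and 25865 in keratinocytes, gave 0.103% and 0% after the same reduction.

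Wnt7b, another epidermal ligand, had 1495 UMIs in control and 647 in IMQ keratinocytes, 42.7 against 9.81 CPM and 4.35-fold lower (3.96 to 4.78). The levels were apart in basal cells (46.1 against 8.49 CPM) and in suprabasal cells (49.7 against 7.80). Follicle stem and outer root sheath cells stood at 17.0 and 18.7 CPM, the control value from 37 cells, so that no call was made there. Wnt16 was at 7.996 against 2.20 CPM, Wnt11 at 13.3 against 3.32, Wnt5a at 11.1 against 3.70 and Wnt3a at 2.46 against 0.925, all lower in IMQ by 2.65 to 4.01-fold. Wnt4 was the most abundant keratinocyte ligand in both libraries, at 123 and 90.2 CPM, and with Wnt10a at 45.4 and 38.4 it passed the 2-fold rule in neither direction.

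In basal cells 5 members were higher and 13 lower of 35 measured, against 7.58% and 11.3% of all genes. Axin2, not called in keratinocytes as a whole at 29.0 against 18.6 CPM, was lower in basal cells at 45.5 against 20.96. In upper follicle cells 2 members were higher and 4 lower of 14, against 7.17% and 12.9% of all genes, and Axin2 was lower at 29.9 against 12.03. Wnt6 was at 14.4 against 4.75 CPM in basal cells. Keratinocytes in no named compartment had 2 members higher and 6 lower of 26, against 5.40% and 11.4% of all genes, among them Wnt3 at 22.1 against 1.10 CPM.

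**Figure D3:**
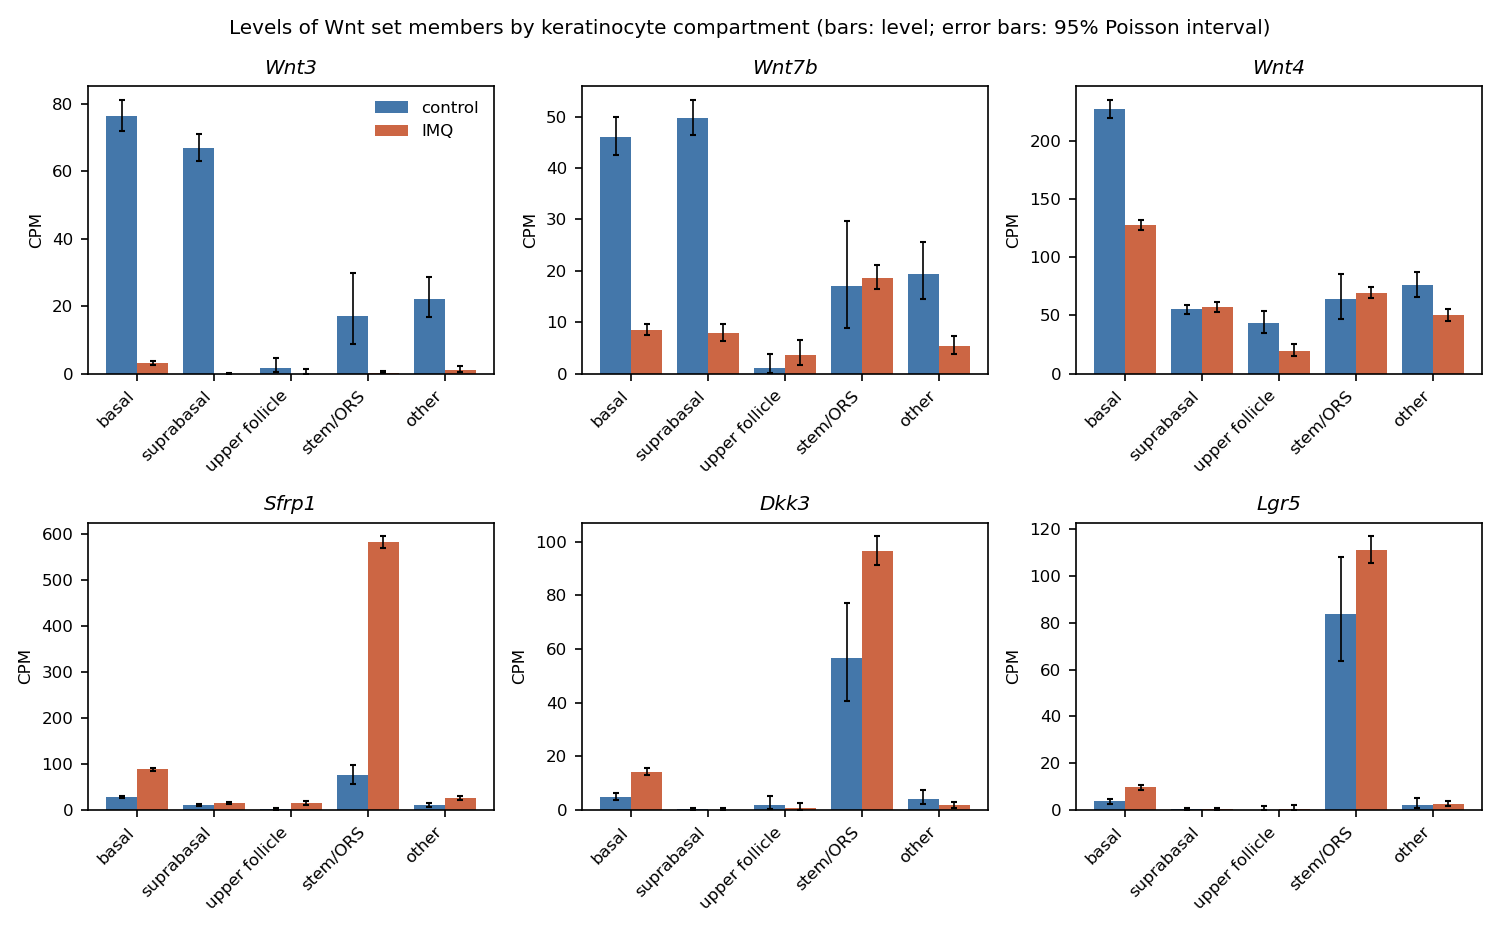
Levels of 6 members in the keratinocyte compartments as CPM, control in blue and IMQ in orange, with 95% Poisson intervals as error bars; stem/ORS stands for follicle stem and outer root sheath cells. Wnt3 stands between 0 and 2.99 CPM in the 5 IMQ compartments, while Sfrp1 reaches 582 CPM in IMQ follicle stem and outer root sheath cells against 75.3 in the control.

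The 7 members on the high side in keratinocytes were Sfrp1, Dkk3 and Wif1 of the antagonist group, the receptors Lgr5 and Fzd2, the target gene Lef1 and the ligand Wnt5b. Sfrp1, which binds Wnt proteins outside the cell, had 630 UMIs in control and 10708 in IMQ cells, 18.0 against 162 CPM and 9.03-fold higher (8.33 to 9.80). Lgr5 stood at 3.51 against 26.8 CPM, 7.63-fold higher, Dkk3 at 3.63 against 26.0, 7.17-fold, Fzd2 at 12.7 against 47.8, 3.78-fold, and Wif1 at 7.51 against 20.6, 2.74-fold. Lef1 was low in both libraries, at 1.63 and 4.05 CPM, and so was Wnt5b, at 1.11 and 2.26, whose call also ended with size factors, the 5% mitochondrial limit, the stricter gate and Leiden clusters. Follicle stem and outer root sheath cells, gated on markers such as Lhx2, Sox9 and Cd34, were 37 of the control and 545 of the IMQ keratinocytes. With those cells left out, an alternative chosen after seeing the data, 15 of the 17 keratinocyte calls remained, and several of the higher ratios were smaller: Sfrp1 was 3.52-fold higher, Dkk3 3.41-fold, Lgr5 3.25-fold and Wif1 2.10-fold. Fzd2 and Wnt5b lost their calls, Fzd2 at 1.68-fold and Wnt5b going from 1.02 to -0.29 on the log2 scale. Inside that compartment, with 37 control cells and so no call, Sfrp1 stood at 75.3 against 582 CPM, Lgr5 at 83.8 against 111 and Dkk3 at 56.8 against 96.6. Wif1 was at 170 against 68.7 CPM there, opposite in direction to the lineage. In basal cells Sfrp1 was at 27.8 against 88.2 CPM and Lgr5 at 3.70 against 9.70, both called higher.

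The R-spondin Rspo3 went from 190 UMIs in control to 4 in IMQ keratinocytes, 5.43 against 0.0607 CPM, a ratio of 89.4 with a wide interval (34.4 to 332). Free RNA could account for 0.37 and 0.31 CPM. Fzd10 was at 18.1 against 5.64 CPM, 3.20-fold lower (2.81 to 3.65).

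In fibroblasts 3 members were higher and 9 lower of 41 measured, while 11.6% and 4.71% of all genes were called. The median log2 ratio of the members was -0.26, and that of all genes was 0.26, since most genes stood higher per UMI in the IMQ library. With size factors that set the gene median to 0, the split was 1 higher and 14 lower. The shares of all genes were not counted with that scaling, so this split has no background. The main clusters again differed, clusters 3, 5, 1 and 6 in the control and 17, 12, 5 and 0 in the IMQ library. The fibroblast markers themselves summed to 149705 CPM in control and 65090.5 in IMQ fibroblasts, and the part of that shift in these results was not tested.

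Wnt5a, a ligand known mostly for signalling outside the beta-catenin branch, had 4756 UMIs in control and 872 in IMQ fibroblasts, 67.8 against 17.0 CPM and 3.98-fold lower (3.70 to 4.28). Cells with a Wnt5a UMI were 24.4% and 8.9997% after reduction to 5000 UMIs, and 33.5% and 15.1% before it. Wnt10b was lower at 2.31 against 0.410 CPM, and Wnt16 higher at 1.81 against 3.87. Wnt2, at 35.5 against 22.5 CPM, and Wnt11, at 25.9 against 15.6, were below in IMQ without passing 2-fold.

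Axin2, the feedback target of beta-catenin signalling, had 1851 against 309 UMIs in fibroblasts, 26.4 against 6.04 CPM and 4.37-fold lower (3.87 to 4.94). Notum, a secreted enzyme that removes the lipid from Wnt proteins, was at 3.16 against 0.371 CPM, and Apcdd1, a membrane inhibitor, at 6.80 against 2.99. The R-spondin Rspo1 was at 52.7 against 14.96 CPM, 3.52-fold lower (3.26 to 3.81). Of the receptors, Fzd5 was at 14.7 against 6.80 CPM, and Fzd4 went the other way at 18.4 against 65.4, 3.55-fold higher (3.33 to 3.79). Sfrp1 stood at 67.3 against 148 CPM, 2.20-fold higher. The most abundant antagonist, Sfrp2, was at 318 against 190 CPM and was not called, and neither was Sfrp4 at 100 against 66.2. With size factors Sfrp1 and Wnt16 were no longer called, though both kept their direction.

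The fibroblast compartments did not all follow. In Pi16 progenitor cells, the largest at 3384 control and 1517 IMQ cells, 1 member was higher and 7 were lower of 34, against 8.71% and 4.07% of all genes. Wnt5a stood there at 54.8 against 19.98 CPM, Axin2 at 12.6 against 1.44, Rspo1 at 26.0 against 7.04 and Fzd4 at 27.4 against 71.6. In dermal sheath cells, 70 and 80 in number, 1 member was higher and 2 were lower of 17, against 10.0% and 3.79% of all genes. Wnt5a was there at 20.1 against 35.3 CPM and Rspo1 at 11.7 against 18.1, above the control and not called, and Sfrp1 was lower at 23.5 against 7.74. Wif1 stood at 539 and 552 CPM in dermal sheath cells, against 607 and 836 in the dermal papilla, so a high level was not particular to the papilla. Papillary cells, gated on markers such as Crabp1 and Col23a1, were 482 in the control and 92 in the IMQ library, mostly in cluster 3 and in clusters 2 and 7 respectively. There 11 members were higher and 3 lower of 30, against 12.4% and 2.82% of all genes. The higher ones were Wif1, Dkk3, Lgr5, Fzd1, Sfrp1, Sfrp2, Rspo4, Wnt10a, Fzd4, Wnt4 and Sfrp4. Several rest on few IMQ UMIs, 14 in 7 cells for Sfrp4 and 16 in 10 cells for Fzd4. Wnt10a had 19 in 6 cells, and Wnt4 had 15, with 7 of them in 1 cell. The lower ones were Axin2, Notum and Fzd5, the last 2 with 11 and 9 IMQ UMIs. In papillary cells Axin2 was at 61.2 against 29.9 CPM, Wnt5a at 106 against 59.8 and Rspo1 at 91.8 against 89.0. The markers Saa3, Lcn2, Hp and Prg4 summed to 27.1 CPM in control and 12693 CPM in IMQ papillary cells, and their part in those counts was not tested. Gdf10 Vtn cells, 285 and 302 in number, had 2 members higher and 1 lower of 22, against 8.25% and 2.17% of all genes. Fibroblasts in no named compartment had 8 higher and 6 lower of 34, against 15.7% and 4.31%. Cells gated on Saa3, Lcn2, Hp and Prg4 numbered 329 in the IMQ library and 0 in the control, and they held Wnt5a at 0.615 CPM, Sfrp2 at 12.1 and Sfrp1 at 163.

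In the dermal papilla, of 29 measured members 6 were higher and 1 was lower, while 13.2% and 2.70% of all genes were called. With size factors the split of the members was 3 and 1, and the shares of all genes were not counted. The median log2 ratio of the members, 0.24, was near that of all genes, 0.27. The cells were 77.4% in cluster 11 in the control and 73.7% in the IMQ library. Their papilla markers summed to 2408 and 2786 CPM, and fibroblast markers to 2220 and 2950. A stricter gate kept 78 of the 124 control and 78 of the 95 IMQ cells, so that more control cells lay near its threshold, and under it 6 members were again higher and 1 lower.

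Rspo1 had 388 UMIs in control and 1042 in IMQ papilla cells, 101 against 342 CPM and 3.40-fold higher (3.02 to 3.83). Rspo2 was at 10.1 against 22.3 CPM, and Rspo3, the most abundant R-spondin here, at 221 against 379 without reaching 2-fold. Apcdd1 stood at 7.79 against 48.6 CPM, 6.25-fold higher (4.20 to 9.58). Axin2 was at 41.5 against 99.9 CPM, 2.41-fold higher (1.98 to 2.93), from 160 and 304 UMIs, and Dkk3 at 15.8 against 37.8. After reduction to 5000 UMIs a cell, 15.7% of control and 34.8% of IMQ papilla cells had an Axin2 UMI, against 61.3% and 78.9% before. Wnt4 was at 0.779 against 8.87 CPM from 3 and 27 UMIs, 7 of the latter in a single cell. With size factors Axin2, Dkk3 and Rspo2 did not reach 2-fold, and Rspo1, Apcdd1, Wnt4 and Notum stayed past it.

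Notum was the exception among papilla genes. It had 937 UMIs in control and 143 in IMQ cells, 243 against 47.0 CPM and 5.18-fold lower (4.34 to 6.22). Thus the feedback genes parted in this lineage, Axin2 and Apcdd1 higher and Notum lower, whereas in fibroblasts all of them were lower. Several of the strongest papilla genes were not called: Lef1 stood at 319 and 323 CPM, Wif1 at 607 and 836, Dkk2 at 746 and 499, Wnt6 at 85.1 and 81.8 and Wnt5a at 69.1 and 131.

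**Figure D4:**
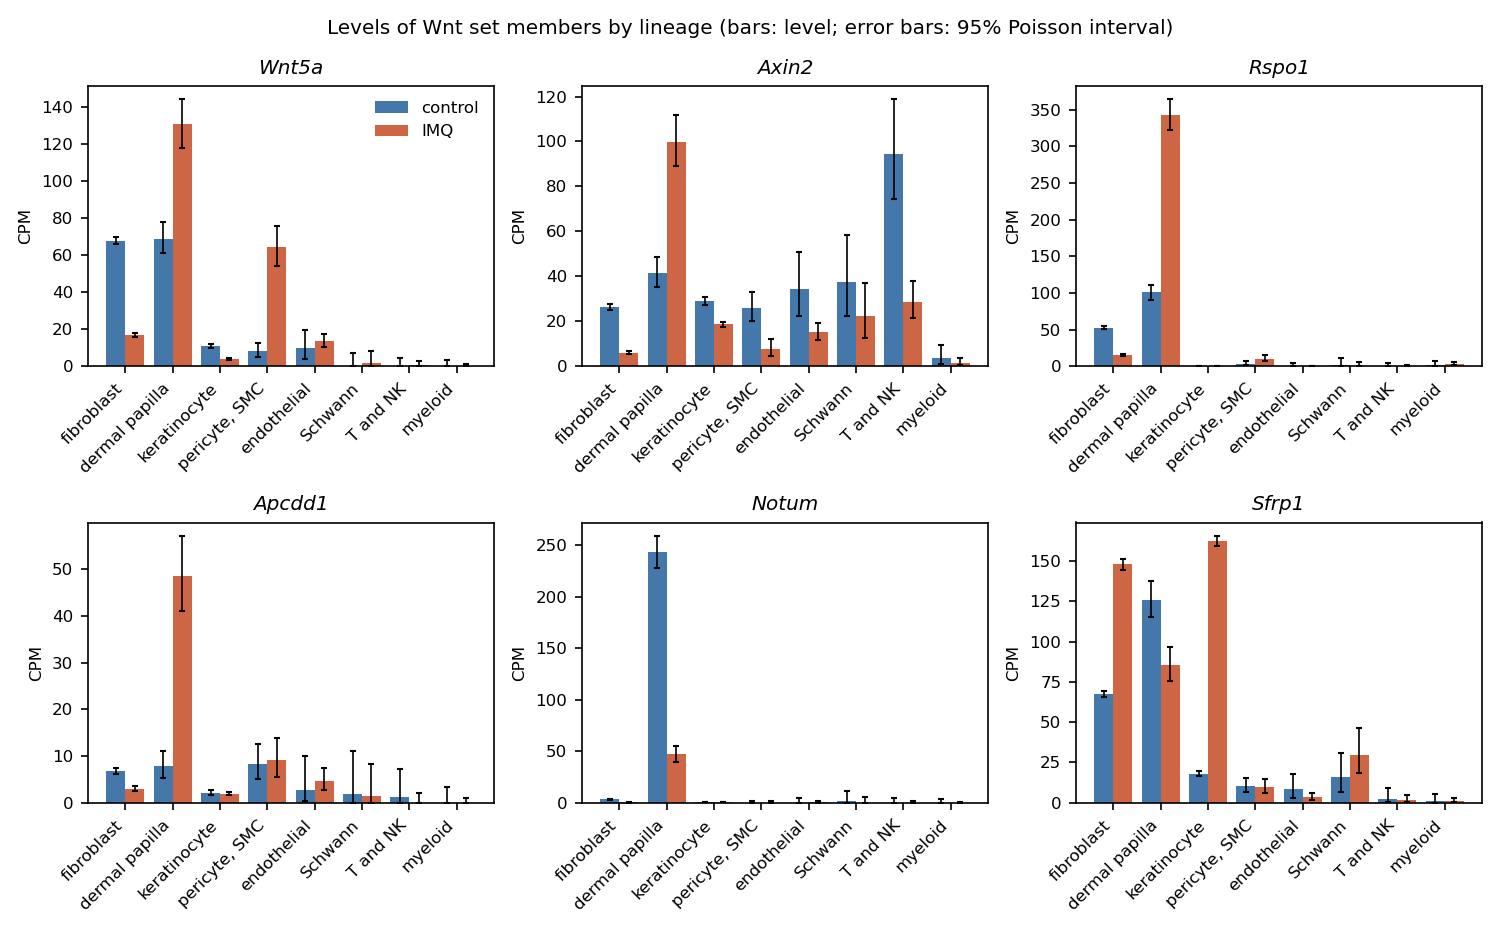
Levels of 6 members in the 8 lineages as CPM, control in blue and IMQ in orange, with 95% Poisson intervals as error bars. In Wnt5a, Axin2, Rspo1 and Apcdd1 the IMQ bar is below the control bar in fibroblasts and above it in the dermal papilla, while for Notum it is below in both.

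In pericytes with smooth muscle cells, 2 members were higher and 5 lower of 17 measured, with 7.67% and 6.85% of all genes called. Wnt5a was the sole ligand measured there and went from 21 to 149 UMIs, 8.21 against 64.4 CPM and 7.84-fold higher (4.95 to 13.04). One IMQ cell held 26 of those UMIs, and the call remained without the top cell of each library. Its UMIs came from 16 control and 36 IMQ cells, 4.97% and 17.6% of the lineage, or 1.41% and 13.6% after reduction to 5000 UMIs. Blood endothelial markers summed to 89.1 CPM in control and 353 in IMQ pericytes, and fibroblast markers to 2129 and 2880, and their part in the result was not tested. Wnt5a stood at 17.0 CPM in IMQ fibroblasts and at 13.6 in IMQ endothelial cells, where 31 of 55 UMIs lay in a single cell. Rspo1 was higher from 9 and 24 UMIs, and with Leiden clusters its log2 ratio of 1.56 was 0.98 and no longer a call. Axin2 was lower at 25.8 against 7.78 CPM, Fzd5 at 27.8 against 9.07 and Fzd8 at 28.5 against 11.7, the last of which was not called with Leiden clusters. Dkk2 and Sfrp2 were lower from 41 against 4 and 25 against 4 UMIs. Of the 25 control UMIs of Sfrp2, 18 lay in 1 cell, and under the stricter gate its log2 ratio was 0.20 in place of -2.50.

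Axin2 was measured in 7 lineages and its IMQ level was below the control level in 6 of them, the dermal papilla being the exception. The highest control level of all was in T and natural killer cells, 94.6 CPM from 74 UMIs in 47 cells, against 28.8 CPM from 52 UMIs in 41 cells in the IMQ library, 3.29-fold lower (2.28 to 4.78). It was the sole call among 4 measured members in that lineage, where 7.35% of genes were called higher and 5.75% lower. Fibroblast markers summed to 1826 CPM in control and 194 in IMQ cells of this lineage, and their part in the Axin2 value was not tested. Clusters 8, 27 and 14 held most of the lineage in both libraries, cluster 14 with 26.0% of control and 41.2% of IMQ cells. Reduction to 5000 UMIs left 35 and 142 cells, of which 34.3% and 6.34% had an Axin2 UMI, against 23.0% and 11.6% of all cells before it. Lef1, which T cells also use, was at 17.9 and 17.1 CPM.

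In endothelial cells none of 17 measured members was higher and 2 were lower, against 8.84% and 3.66% of all genes. Axin2 stood at 34.4 against 15.1 CPM, 2.28-fold lower (1.37 to 3.68), and Dkk3 was lower from 12 and 14 UMIs over 86 and 288 cells. Fzd4, the receptor best known from vessels, was level at 98.9 and 99.4 CPM. Blood endothelial markers summed to 4812 and 6496 CPM and lymphatic ones to 25045.5 and 17769.5, and their part in these values was not tested. Cluster 23 held 60.5% of control and 59.4% of IMQ endothelial cells and cluster 32 the others.

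In Schwann cells 3 of 11 measured members were higher and 1 was lower, against 3.76% and 2.06% of all genes. Wnt6 was at 15.8 against 49.2 CPM, Fzd1 at 33.6 against 90.9 and Fzd2 at 7.89 against 25.3, each higher, and Fzd3 was lower at 84.9 against 38.8. With Leiden clusters 1 of these 4 calls, Fzd1, remained, and the log2 ratios were 0.99 for Wnt6, 0.58 for Fzd2 and -0.98 for Fzd3. The Fzd2 call also ended at the 5% mitochondrial limit and without doublets, and that of Fzd3 under the stricter gate. These rest on 8 to 61 UMIs a library, except for 4 control UMIs of Fzd2. The lineage's most abundant member, Sfrp5, was at 294 and 292 CPM.

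In myeloid cells none of 6 measured members was higher and 3 were lower, against 6.02% and 6.25% of all genes. Wnt11 was at 46.8 against 8.19 CPM, 5.71-fold lower (3.51 to 9.48), and Lrp6 at 71.1 against 23.7, 3.004-fold lower. Wif1 was lower from 17 and 3 UMIs, 9 of the 17 in 1 cell. Dendritic markers summed to 31425 CPM in control and 13262 in IMQ myeloid cells, and macrophage and monocyte markers to 8397 and 10804. The part of that shift in the Wnt11 and Lrp6 values was not tested.

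The other genes of the pathway were taken from a list of 67, of which 66 were measured over all cells. In keratinocytes 9 were higher and 12 lower of 63 measured, 14.3% and 19.0%, where all genes gave 11.7% and 10.8%. Porcn, the enzyme that adds the lipid to Wnt proteins, was at 3.60 against 37.8 CPM, 10.49-fold higher, and Trabd2b, a protease that inactivates Wnt proteins, at 1.57 against 13.4. Ror2, a receptor for Wnt5a, and Tcf7l1, a repressor in follicle stem cells, were also higher, at 0.314 against 2.71 and 2.23 against 7.58 CPM. Follicle stem and outer root sheath cells were 37 of the control and 545 of the IMQ keratinocytes. Their part in the values of these single pathway genes was not tested. Of the 13 measured target genes in keratinocytes 6 (46.2%) were lower and 2 (15.4%) higher. Lower were the target genes Bmp4 at 24.3 against 1.08 CPM, 22.6-fold, Dkkl1 at 151 against 18.1, Tnfrsf19 at 55.5 against 9.15 and Nkd2 at 3.06 against 0.455.

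In fibroblasts 4 were higher and 7 lower of 64, or 6.25% and 10.9%, where all genes gave 11.6% and 4.71%. With size factors the counts were 0 and 10, without shares of all genes beside them. Of the 13 measured target genes 5 (38.5%) were lower and none higher. Sp5, a direct beta-catenin target, was at 3.73 against 0.430 CPM, 8.69-fold lower, Tnfrsf19 at 13.7 against 2.09 and Nkd2, an inhibitor of Dishevelled, at 34.2 against 12.2. Dact2 was at 3.86 against 1.17. Cthrc1, a secreted Wnt cofactor, was higher at 160 against 338 CPM, Porcn at 4.67 against 9.47 and Tinagl1 at 0.912 against 1.91.

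In the dermal papilla 5 of 56 were higher, a share of 8.93% that is below the 13.2% of all genes, and none was lower against 2.70%. With size factors 1 was higher and 2 were lower, again without shares of all genes. Dact1 stood at 51.9 against 125 CPM, Ccnd1 at 11.4 against 32.5, Csnk1d at 62.3 against 129 and Btrc at 15.1 against 35.5. In pericytes 3 were higher and 9 lower of 51, or 5.88% and 17.6% against 7.67% and 6.85% of all genes, and Ccnd1 was among the higher ones at 21.1 against 116 CPM. In endothelial cells 2 were higher and 6 lower of 48, or 4.17% and 12.5% against 8.84% and 3.66%. Ccnd1, the cell cycle gene cyclin D1, was lower in T and natural killer cells (85.6 against 19.4 CPM) and in myeloid cells (174 against 59.5). In T and natural killer cells 5 of 28 (17.9%) were lower and none higher, against 5.75% and 7.35% of all genes, and in myeloid cells 5 of 25 were lower and none higher, against 6.25% and 6.02%. In Schwann cells 5 were higher and 2 lower of 38, or 13.2% and 5.26% against 3.76% and 2.06%.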

How the data were processed

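Single-cell UMI counts were used as deposited by the authors, 1 filtered matrix per library. The matrices were written by Cell Ranger 5.0.0 per the file headers, whereas the submitters' processing notes name Cell Ranger 3.0.2, Seurat 2.0 and build mm10. For the alignment settings and the annotation release: not given in the sources used here. Cells with at least 200 genes and at most 10% mitochondrial UMIs were kept. A cell entered a lineage by its level of marker genes, at least 3 of them on, with a 1.5-fold lead over the next lineage. Between the dermal papilla and fibroblasts no lead was required, in the main or the stricter gate. There the larger share of markers that were on decided. This scoring rule was chosen after seeing the data, and the members, markers and lists were chosen with earlier results of these data known. Scrublet, through scanpy 1.11.5, marked 422 control cells (4.10%, with 8.24% expected) and 110 IMQ cells (1.29%, with 6.80% expected), which stayed in the values. UMIs were summed per lineage and library, and levels carry exact Poisson intervals, shares exact binomial (Clopper-Pearson) and ratios exact conditional binomial ones, at 95%. With 1 library a group no test was made, and the intervals cover counting error only. A gene with no UMI in 1 library is set against a floor of 3 counts. Free RNA was estimated from markers of other lineages.

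Members were to be given in full at 100 UMIs or more in lineages with at least 100 cells a library. Dermal papilla and endothelial values are outside that rule and were chosen after their values were seen, as were members with fewer UMIs. Of other pathway genes, at most 4 a direction and lineage are named, those with 100 UMIs or more and an interval farthest from equality. Scaling by size factors moved the log2 ratio of the median gene by 0.26 in fibroblasts, 0.27 in the dermal papilla and 0.16 in endothelial cells and in all cells. Calculations used Python 3.11.15 with numpy 2.4.6, pandas 2.3.3, SciPy 1.17.1, igraph 0.11.9 and matplotlib 3.10.9, and were checked on simulated counts. Alternatives covered scaling, cell filters, a stricter gate, Leiden clusters, doublets, free RNA, the top cell of each gene and the minimum count.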

Additional observations from a re-analysis of the deposited data

Results flagged for a closer look

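For 7 members the IMQ library stood past the 2-fold rule in opposite directions in different lineages. With 1 library a group, the difference between lineages was not tested for any of them. How many of all genes were called in opposite directions was not counted, so the number of such members has no background. The values are log2 ratios, IMQ over control. Axin2 was at 1.27 in the dermal papilla, against -2.13 in fibroblasts, -1.73 in pericytes with smooth muscle cells, -1.19 in endothelial cells and -1.72 in T and natural killer cells. Apcdd1 was at 2.64 in the dermal papilla and -1.19 in fibroblasts. Rspo1 was at 1.77 in the dermal papilla and 1.56 in pericytes, against -1.82 in fibroblasts. Wnt5a was at 2.97 in pericytes, against -1.99 in fibroblasts and -1.59 in keratinocytes. Wnt16 was at 1.10 in fibroblasts and -1.86 in keratinocytes. Dkk3 was at 1.26 in the dermal papilla and 2.84 in keratinocytes, against -2.25 in endothelial cells, where it rests on 12 and 14 UMIs. Wif1 was at 1.46 in keratinocytes and -4.13 in myeloid cells, where it rests on 17 and 3 UMIs. The Rspo1 call in pericytes ended with Leiden clusters, and the calls of Axin2 and Dkk3 in the dermal papilla and of Wnt16 in fibroblasts ended with size factors, each with the same sign.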

How the results depend on the processing

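No paired analysis was possible because each group is 1 library and the labels carry no replicate numbers. Of 394 alternative values for counts of calls, 350 stayed within 1.5 times the reported count, and of 1645 for single genes, 1447 stayed within counting error and 14 changed sign. The shares of all genes were not counted under the alternatives, so counts of calls under them have no background. Calls that remained were 62 of 69 with size factors, 48 of 51 under the stricter gate and 46 of 52 with Leiden clusters. They were 47 of 47 after free RNA was subtracted and 65 of 65 without the top cell. The second numbers leave out calls without a comparable value under that alternative, so such calls do not count as lost. The main values held 53 calls over the 8 lineages and 69 with all cells together. Without the top cell, 2 of the 3 myeloid calls and 6 of the 7 pericyte calls could be compared.

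Size factors gave, in fibroblasts, 1 member higher and 14 lower and 0 other pathway genes higher; in the dermal papilla 3 members higher and 1 pathway gene higher and 2 lower; and over all cells 10 pathway genes lower. Leiden clusters gave, in fibroblasts, 6 members and 1 pathway gene higher; in pericytes 1 member higher; in endothelial cells 1 member and 1 pathway gene higher; in Schwann cells 0 members lower; in T and natural killer cells 1 member higher and 9 lower, with 1 pathway gene higher and 10 lower; and in myeloid cells 7 members lower and 1 pathway gene higher. Subtracting free RNA gave 7 members higher in fibroblasts. The stricter gate gave 1 member higher in endothelial cells, 0 members lower in Schwann cells with 2 pathway genes higher and 1 lower, and 2 pathway genes lower in T and natural killer cells. A mitochondrial limit of 5% gave 3 pathway genes higher and 1 lower in Schwann cells. Without the top cell of each gene, 3 pathway genes were higher in Schwann cells and 3 lower in myeloid cells. A minimum of 5 UMIs gave 2 members lower in T and natural killer cells and 13 pathway genes lower in myeloid cells. A minimum of 100 UMIs tests fewer genes: it gave 2 members higher over all cells; 1 member higher, 1 lower and 4 pathway genes lower in pericytes; 0 members lower and 1 pathway gene higher in endothelial cells; 0 in every count of Schwann cells; 1 pathway gene lower in T and natural killer cells; and 1 member and 1 pathway gene lower in myeloid cells.

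The log2 ratios that changed sign were, within dermal sheath cells, Rspo1 (0.62), Wnt5a (0.81) and Sfrp1 (-1.60); within papillary cells Apcdd1 (0.60); within Gdf10 Vtn cells Fzd5 (0.10); within basal cells Wnt5b (-0.89), and -0.29 in keratinocytes without follicle stem and outer root sheath cells, an alternative chosen after seeing the data; within suprabasal cells Wif1 (-0.96); within upper follicle cells Fzd2 (-0.11); within the other keratinocytes Dkk3 (-1.24), Wif1 (-0.92) and Fzd2 (-0.22); and under the stricter gate Sfrp2 in pericytes (0.20). The Sfrp4 share of keratinocytes, thinned, differed by 0.0316 percentage points in the other direction. The cause of these shifts was not tested.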
